A study of Homo sapiens with 2 samples.

Results

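The genes described here encode the solute carrier family 25 (SLC25), nearly all of them transporters of the mitochondrial inner membrane. They were taken as all protein-coding rows of the deposited gene table whose symbol is SLC25A followed by a number only. This rule found 48 of 46427 gene rows. RNA was sequenced from cells labelled as the pancreatic adenocarcinoma line MIA PaCa-2, held for 48 hours with iMQT_020 or with vehicle. The study's title and design text call the agent a blocker of the transporter that takes glutamine into mitochondria, and its dose is not given in the labels. Each treatment was represented by 1 library, so no difference has a replicate check, no test of the treatment was possible and no p-value is given. The treatment cannot be told apart from any other difference between the 2 libraries.

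SLC25 proteins exchange metabolites between the cytosol and the mitochondrial matrix, and each is specific for a small set of substrates. Through them glutamine-derived carbon leaves the matrix as malate, citrate or aspartate, ATP is exchanged for ADP, and cofactors such as NAD, folate and glutathione enter. Glutamate carriers act downstream of glutamine breakdown, and the citrate carrier supplies the cytosol with the carbon used for fatty acid and sterol synthesis. Members were grouped here by substrate into amino acids, di- and tricarboxylates, nucleotides and phosphate, cofactors (with glutathione, carnitine and iron), proteins named for likeness to uncoupling proteins, and those whose substrate is unsettled.

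The libraries held 59139157 (iMQT_020) and 67095283 (vehicle) estimated counts. Genes reaching 50 counts in either library were taken as measured, and there were 14805. Of 6 genes read to check the line, CDKN2A, MTAP and CDKN2B lie in a stretch of DNA whose loss is typical of MIA PaCa-2. Yet CDKN2A was at 208 TPM (iMQT_020) and 278 TPM (vehicle), MTAP at 26.2 and 33.7, and CDKN2B at 13.5 and 8.04. All of these went against the label. CD44 had 3 counts with iMQT_020 and 16 with vehicle, ANXA1 was at 2.74 and 3.13 TPM, and VIM was abundant at 438 and 403 TPM. The identity of the line was not tested. Of 6 duct and epithelial markers, KRT8 and KRT18 were abundant, KRT19 had 0 counts in both libraries and EPCAM had 0 and 4 counts. Of 5 fibroblast, 4 blood and 3 endothelial markers, COL1A1 and CD68 alone reached 1 TPM in either library.

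Of the 48 carriers, 41 were measured. None of the 41 was at least 2-fold apart between the libraries, against 5.23% of all measured genes (2.15% higher and 3.09% lower with iMQT_020). SLC25A43 was at least 1.5-fold higher with iMQT_020, which is 2.44% of the measured carriers against 6.3% of all measured genes. SLC25A1, SLC25A29 and SLC25A48 were at least 1.5-fold lower, which is 7.32% against 10.2%. Both shares lie below the background for all genes. After centring on genes of like GC content and length, SLC25A1 (−0.45), SLC25A29 (−0.48) and SLC25A48 (−0.55) all lay inside 1.5-fold on the log2 scale, and SLC25A43 (0.76) did not. With a minimum of 200 counts in either library 40 carriers were left, without SLC25A43, so that 0 were higher and 3 lower by this rule. Among protein-coding genes with that minimum, 3.34% were higher and 7.72% lower by this rule. At 2-fold these shares were 0.58% and 1.72%, so a count of 0 carriers past 2-fold does not set the family apart. The median log2 ratio of the 41 carriers, iMQT_020 over vehicle, was −0.04, beside −0.02 for all measured genes, with 27 carriers below 0 and 14 above (52.7% of all measured genes were below 0). Ratios are of counts scaled to library size (CPM) by the TMM method, and intervals beside them are exact 95% intervals that cover counting error only. The interval lay below 0 for 16 carriers, above 0 for 9 and across 0 for 16. At this depth 74.2% of all measured genes had an interval clear of 0, so such an interval says little about the treatment.

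**Figure D1:**
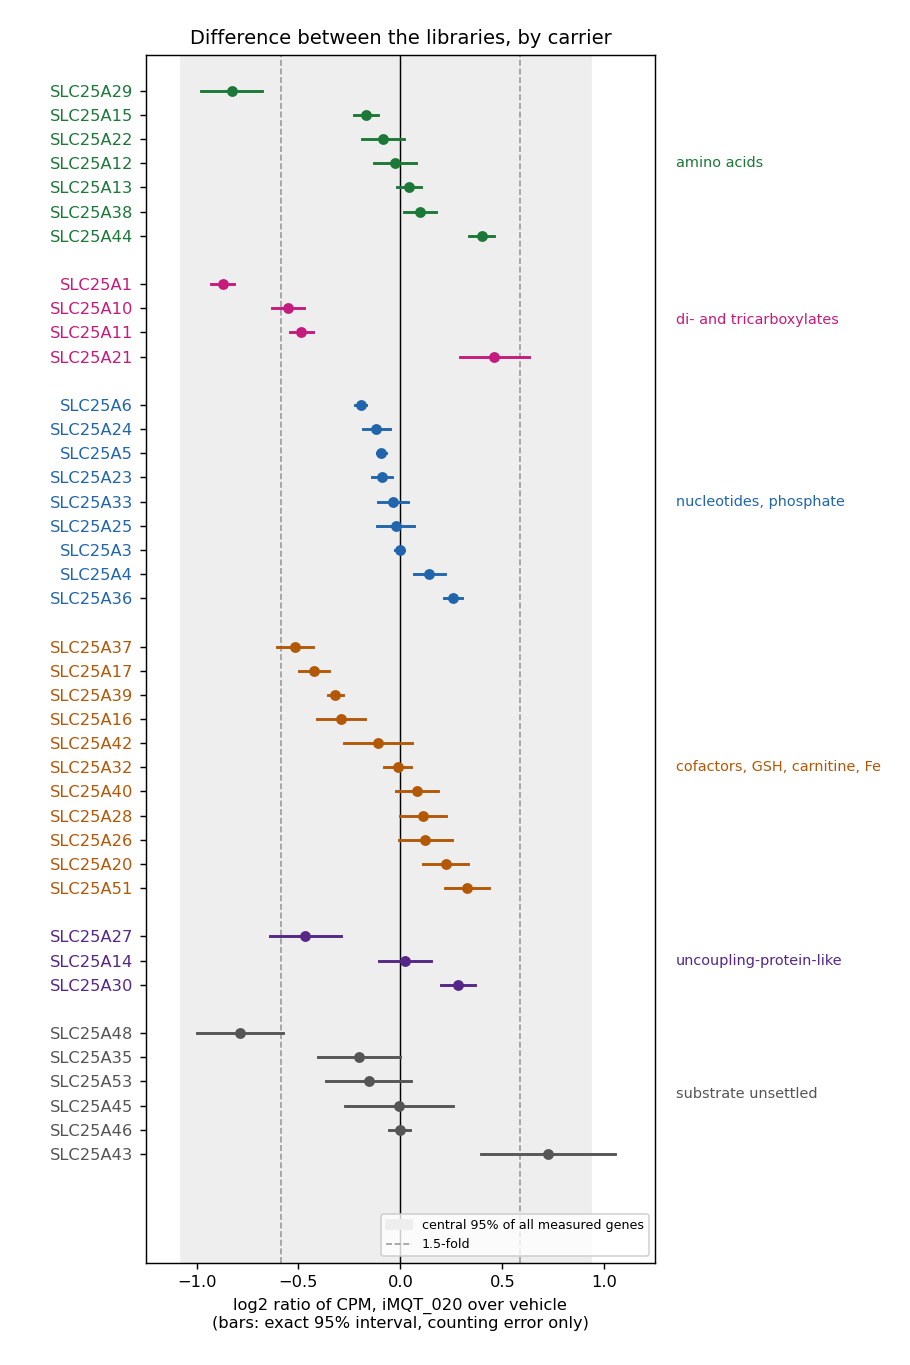
Log2 ratio of CPM, iMQT_020 over vehicle, for 40 of the 41 measured carriers by substrate group, with bars for the exact 95% interval of counting error and grey for the central 95% of all measured genes. All 40 points lie within the grey band, and SLC25A1 (−0.87), SLC25A29, SLC25A48 and SLC25A43 (0.72) lie past the dashed 1.5-fold lines.

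The di- and tricarboxylate carriers, 4 of 4 measured, stood lowest as a group, with a median log2 ratio of −0.52 and a range from −0.87 to 0.46. Their summed level was 236 TPM in the iMQT_020 library and 356 TPM in the vehicle library. They took 0.0181% of all counts with iMQT_020 (Wilson 95% interval 0.0177% to 0.0184%) and 0.0275% with vehicle (0.0272% to 0.0279%). SLC25A1, SLC25A10 and SLC25A11 were lower with iMQT_020 and SLC25A21 was higher. With ratios centred on genes of like GC content and length, the group median was −0.25.

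SLC25A1, the citrate carrier, lies on chromosome 22 from 19175581 to 19178736 (GRCh38). It had 3880 counts and 98.2 TPM with iMQT_020, and 8023 counts and 174 TPM with vehicle. At a log2 ratio of −0.87 (−0.93 to −0.82), or 1.83-fold lower with iMQT_020, it was the lowest of the measured carriers before centring. Of all measured genes, 4.55% had a lower ratio. Deposited TPM gave −0.82 on the log2(TPM + 1) scale, and the value centred on GC content and length was −0.45, above those of SLC25A37, SLC25A48, SLC25A27, SLC25A29 and SLC25A17.

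SLC25A10, which exchanges malate or succinate for phosphate, lies on chromosome 17 from 81712284 to 81721012. It had 2111 counts and 39.5 TPM with iMQT_020, and 3497 counts and 55.8 TPM with vehicle (log2 ratio −0.55, −0.63 to −0.47). SLC25A11, which exchanges oxoglutarate for malate and serves the malate-aspartate shuttle, had 4076 counts and 92.5 TPM with iMQT_020, and 6448 counts and 123 TPM with vehicle. Both were lower with iMQT_020 by similar amounts, and both were at −0.25 after centring. SLC25A21, a carrier of oxoadipate and related acids from lysine and tryptophan breakdown, had 629 counts and 6.11 TPM with iMQT_020, and 516 counts and 4.23 TPM with vehicle. Its log2 ratio was 0.46 (0.29 to 0.63), the one value above 0 in the group, and it was the least abundant of the 4. It overlaps PAX9, with 337 and 538 counts, and the antisense gene SLC25A21-AS1, with 91 and 153 counts (iMQT_020 and vehicle in each pair). Both neighbours were lower with iMQT_020, the opposite side from SLC25A21.

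The 250 bases before the start of SLC25A1, SLC25A11 and SLC25A21 are shown from RefSeq (GRCh38.p14), because this group held both the lowest uncentred ratio and 1 of the highest. Capitals mark matches, on either strand, to the GC box (GGGCGG), the CCAAT box (CCAAT), the E-box (CACGTG) and the motif of the factor NRF1 (GCGC, any base, then TGCGC). The windows are chr22:19178737-19178986 (minus strand) for SLC25A1, chr17:4940047-4940296 (minus) for SLC25A11 and chr14:37172607-37172856 (minus) for SLC25A21.
SLC25A1: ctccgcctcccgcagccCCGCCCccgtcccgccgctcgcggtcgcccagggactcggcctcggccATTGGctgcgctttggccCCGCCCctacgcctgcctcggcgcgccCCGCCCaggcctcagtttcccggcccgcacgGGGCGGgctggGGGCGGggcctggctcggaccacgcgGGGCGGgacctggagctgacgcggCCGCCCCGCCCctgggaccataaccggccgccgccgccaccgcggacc
SLC25A11: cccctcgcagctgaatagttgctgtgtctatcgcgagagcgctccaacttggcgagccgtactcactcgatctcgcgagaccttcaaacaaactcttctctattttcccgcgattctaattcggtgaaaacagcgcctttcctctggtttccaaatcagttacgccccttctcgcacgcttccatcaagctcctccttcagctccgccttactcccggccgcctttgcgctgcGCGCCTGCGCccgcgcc
SLC25A21: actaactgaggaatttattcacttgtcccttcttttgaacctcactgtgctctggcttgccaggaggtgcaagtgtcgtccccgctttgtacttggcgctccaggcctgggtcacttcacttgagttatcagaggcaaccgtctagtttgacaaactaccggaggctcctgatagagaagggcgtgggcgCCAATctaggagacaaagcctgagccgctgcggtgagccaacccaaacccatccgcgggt

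SLC25A1 held 8 GC boxes, 2 of which overlap by a base, and 1 CCAAT box, and its window was 81.6% G or C. SLC25A11 held no GC box and 1 NRF1 match at 57.6%, and SLC25A21 held 1 CCAAT box at 54.8%. A window was given for 40 carriers, 35 of them measured. Of these 35, a GC box was in 26 (74.3%), against 68.5% of the 10533 measured protein-coding genes with a window and 42.3% of all 27305 windows. The CCAAT box was in 17 (48.6%, against 35.3% and 33.04%), the E-box in 6 (17.1%, against 9.13% and 6.49%) and the NRF1 motif in 2 (5.71%, against 10.6% and 5.53%). The TATA box (TATAAA) was in 2 (5.71%, against 5.04% and 11.1%). A match is a string of letters and shows no binding.

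Of the 9 amino acid carriers, 7 were measured, with a median log2 ratio of −0.03 and a range from −0.83 to 0.40. Their summed level was 223 TPM with iMQT_020 and 225 TPM with vehicle. The carriers of glutamate and aspartate, the ones nearest to glutamine breakdown, lay close to 0. SLC25A22, a glutamate carrier, had 1368 counts and 20.2 TPM with iMQT_020, and 1640 counts and 20.4 TPM with vehicle (−0.09, −0.19 to 0.02; 0.26 after centring). SLC25A12 and SLC25A13 bring glutamate into the matrix in exchange for aspartate. SLC25A13 had 4713 counts and 58.7 TPM with iMQT_020, and 5170 counts and 55.1 TPM with vehicle (0.04, −0.01 to 0.10). SLC25A12 had 1434 counts and 14.3 TPM with iMQT_020, and 1650 counts and 16.1 TPM with vehicle (−0.03, −0.13 to 0.08). The intervals of all 3 reach across 0 and lie well inside 1.5-fold in either direction. SLC25A18, the other glutamate carrier, had 8 counts with iMQT_020 and 7 with vehicle, too few to compare.

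At the ends of the amino acid group were SLC25A29 and SLC25A44. SLC25A29, a carrier of arginine, lysine and other basic amino acids on chromosome 14 (100278567 to 100306444), had 545 counts and 9.09 TPM with iMQT_020, and 1092 counts and 15.6 TPM with vehicle. It stood at −0.83 (−0.98 to −0.68), or 1.77-fold lower with iMQT_020, and at −0.48 after centring. Its gene model overlaps YY1, a much more abundant gene that was at 0.10, with 13130 and 13866 counts (iMQT_020 and vehicle). SLC25A44, a carrier of branched-chain amino acids, had 4700 counts with iMQT_020 and 4027 with vehicle (0.40, 0.34 to 0.46). Its TPM values were closer, at 34.4 with iMQT_020 and 32.6 with vehicle. SLC25A15, the ornithine carrier of the urea cycle, had 3923 counts and 40.2 TPM with iMQT_020, and 4983 counts and 43.8 TPM with vehicle (−0.17, −0.23 to −0.11). SLC25A38, which imports glycine for heme synthesis, was at 0.10 (0.02 to 0.18). SLC25A2, a second ornithine carrier, had 2 counts with iMQT_020 and 4 with vehicle.

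Nucleotide and phosphate carriers made up most of the family's RNA, with 63.8% of its summed TPM in the iMQT_020 library and 61.4% in the vehicle library. Of 11 members 9 were measured. Their log2 ratios were the narrowest of the larger groups, from −0.20 to 0.26 with a median of −0.04. SLC25A5, the ADP/ATP carrier typical of dividing cells, had 30572 counts and 916 TPM with iMQT_020, and 36873 counts and 947 TPM with vehicle (−0.09, −0.12 to −0.07). SLC25A6, another ADP/ATP carrier, had 21482 counts and 579.8 TPM with iMQT_020, and 27791 counts and 643 TPM with vehicle (−0.20, −0.22 to −0.17). After centring on GC content and length SLC25A6 was at 0.12, on the other side of 0, and SLC25A5 at 0.00. SLC25A4, the ADP/ATP carrier of heart and muscle, had 2701 counts and 24.0 TPM with iMQT_020, and 2767 counts and 21.03 TPM with vehicle (0.14, 0.06 to 0.22). SLC25A3, which imports phosphate for ATP synthesis, did not stand apart, at 194 TPM with iMQT_020 and 191 TPM with vehicle (−0.00, −0.03 to 0.02).

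SLC25A36, a carrier of pyrimidine nucleotides, was the highest of the group. It had 8681 counts and 62.9 TPM with iMQT_020, and 8194 counts and 50.1 TPM with vehicle (0.26, 0.22 to 0.30), and 0.07 after centring. Its relative SLC25A33 was at −0.04. The calcium-dependent ATP-Mg/phosphate carriers SLC25A23, SLC25A24 and SLC25A25 were at −0.09, −0.12 and −0.02. SLC25A5, SLC25A6 and the glutathione importer SLC25A39, the most abundant carriers in both libraries, held 57.1% of the family's TPM with iMQT_020 and 57.3% with vehicle. The median level of the 41 measured carriers was 29.0 TPM with iMQT_020 and 25.5 TPM with vehicle. The lowest was SLC25A53 with iMQT_020, at 2.11 TPM, and SLC25A43 with vehicle, at 1.65 TPM.

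**Figure D2:**
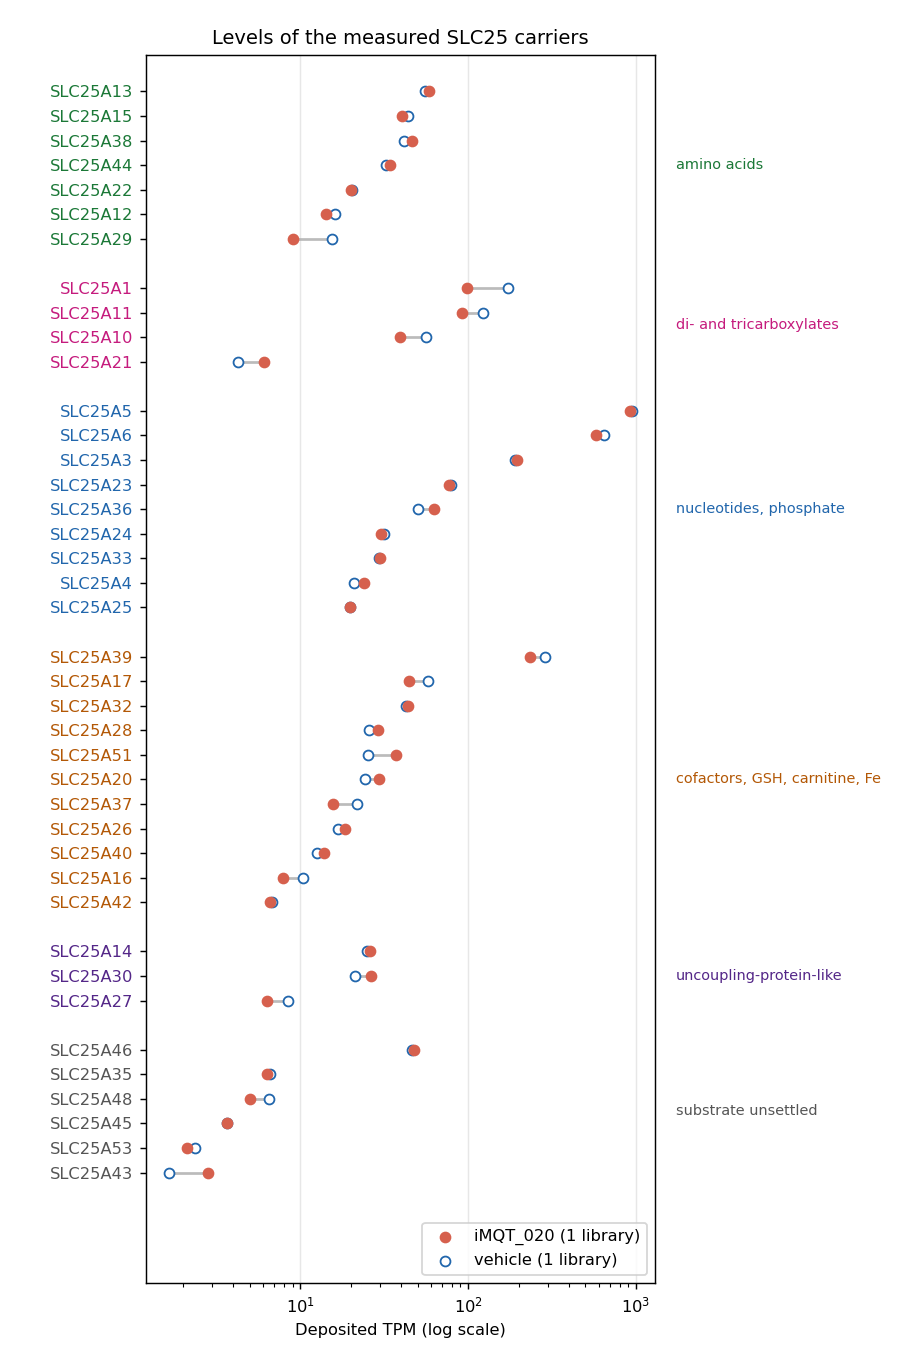
Deposited TPM on a log axis for 40 of the 41 measured carriers by substrate group, with filled red points for the iMQT_020 library and open blue points for the vehicle library. The order of abundance is nearly the same in both, from SLC25A5 at 916 and 947 TPM down to carriers of a few TPM, and the widest gaps are those of SLC25A1, SLC25A29 and SLC25A43.

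Of 13 cofactor, glutathione, carnitine and iron carriers, 12 were measured, with a median log2 ratio of −0.05 and values spread from −0.52 to 0.33. SLC25A37 (mitoferrin 1), an iron importer best known from red cell precursors, was lowest. It had 1667 counts and 15.7 TPM with iMQT_020, and 2694 counts and 21.7 TPM with vehicle (−0.52, −0.61 to −0.43; −0.56 after centring). SLC25A17, a carrier of coenzyme A and nucleotide cofactors in peroxisomes and thus not a mitochondrial protein, had 2538 counts and 44.4 TPM with iMQT_020, and 3851 counts and 57.7 TPM with vehicle (−0.43, −0.50 to −0.35). SLC25A39, needed for import of glutathione, was the most abundant of the group. It had 10513 counts and 235 TPM with iMQT_020, and 14818 counts and 286 TPM with vehicle (−0.32, −0.36 to −0.28), and its value after centring was −0.00. SLC25A16, linked to coenzyme A, was at −0.29 (−0.41 to −0.17). Those above 0 included SLC25A20, the carnitine-acylcarnitine carrier of fatty acid oxidation, at 0.22 (0.11 to 0.33). The carriers of folate or FAD (SLC25A32), S-adenosylmethionine (SLC25A26) and coenzyme A (SLC25A42) had intervals across 0.

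SLC25A51, which imports NAD, was highest in the cofactor group. It had 1508 counts and 37.4 TPM with iMQT_020, and 1359 counts and 25.5 TPM with vehicle (0.33, 0.22 to 0.43). SLC25A52, its near-identical copy, had 6 counts with iMQT_020 and 11 with vehicle. The coding sequences of both are 891 bases and differ at 21 positions (97.6% identity, from GENCODE 44), so reads from stretches that they share cannot be assigned by sequence alone. A stretch with 5 of these differences is shown with the differing bases in capitals, because no stretch of 60 bases holds more. It covers bases 303 to 362 of each coding sequence, counted from the first base of the start codon. The other differences lie elsewhere in the coding sequence. SLC25A51 lies on chromosome 9 (37877575 to 37904127) and SLC25A52 on chromosome 18 (31759584 to 31760880).
SLC25A51: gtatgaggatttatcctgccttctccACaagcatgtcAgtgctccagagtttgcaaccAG
SLC25A52: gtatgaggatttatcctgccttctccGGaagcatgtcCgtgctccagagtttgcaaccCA

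Of all windows of 50 bases in the canonical transcript of SLC25A51, 41.6% also occur in transcripts of other genes, mostly those of SLC25A52 and of pseudogenes of SLC25A51. For the ADP/ATP carriers, whose coding sequences are 77.2% to 78.7% identical to each other, these shares were low, at 4.45% for SLC25A5, 1.36% for SLC25A6 and 0% for SLC25A4. The highest shares were those of SLC25A32 (87.9%) and SLC25A10 (62.0%), each shared almost wholly with 1 other GENCODE gene.

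The carriers named for likeness to uncoupling proteins were measured in 3 of 3 cases and went to both sides. SLC25A27, a neuronal protein, had 445 counts and 6.33 TPM with iMQT_020, and 695 counts and 8.48 TPM with vehicle (−0.47, −0.64 to −0.29). SLC25A30 had 2440 counts and 26.6 TPM with iMQT_020, and 2267 counts and 21.2 TPM with vehicle (0.28, 0.20 to 0.37). SLC25A14 had 951 counts and 25.9 TPM with iMQT_020, and 1058 counts and 24.9 TPM with vehicle, and its interval lay across 0 (−0.11 to 0.15).

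Of 8 carriers with unsettled substrates, 6 were measured. SLC25A43, on the X chromosome (119399336 to 119454478), had the highest log2 ratio of all carriers at 0.72 (0.40 to 1.05). It rests on few counts, 193 with iMQT_020 and 132 with vehicle, at 2.81 and 1.65 TPM, and 95.9% of all measured genes had a lower ratio. On the log2(TPM + 1) scale it was at 0.53, inside 1.5-fold. With nothing added to TPM its log2 ratio was 0.77, past 1.5-fold. SLC25A48, on chromosome 5 (135579172 to 135888637), had 283 counts with iMQT_020 and 552 with vehicle (−0.79, −0.999 to −0.58; −0.55 after centring), but its levels lay closer at 5.00 and 6.51 TPM. SLC25A46, which acts in the shaping of mitochondrial membranes, was the most abundant of the group. It did not stand apart, with 5785 counts and 47.7 TPM (iMQT_020) and 6548 counts and 46.4 TPM (vehicle). SLC25A35 was at −0.20 (−0.41 to −0.00), SLC25A53 at −0.16 and SLC25A45 at −0.01.

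Related carriers did not always have like ratios. Of the iron importers, SLC25A28 (mitoferrin 2) made up 64.9% of the TPM of the pair in the iMQT_020 library and 54.2% in the vehicle library. The log2 ratio of SLC25A28 exceeded that of SLC25A37 by 0.63 (Wald 95% interval of the counts 0.49 to 0.77, counting error only), and by 0.99 after centring. Of the glutathione importers, SLC25A40 made up 5.53% of the pair with iMQT_020 and 4.21% with vehicle, and its ratio exceeded that of SLC25A39 by 0.40 (0.29 to 0.51). After centring that difference was −0.09, so its direction turned. For SLC25A36 over SLC25A33 the difference was 0.30 (0.21 to 0.38; 0.13 after centring), and for SLC25A30 over SLC25A14 it was 0.26 (0.11 to 0.41; 0.09 after centring). The ratio of SLC25A4 exceeded that of SLC25A5 by 0.24 (0.16 to 0.32; 0.07 after centring). The pair SLC25A12 and SLC25A13 differed by −0.07 (−0.19 to 0.05) from counts and by −0.26 from TPM. The pairs were picked by relatedness, with results of these data already known. No background from pairs of other genes is given. The central 95% of the log2 ratios of all measured genes ran from −1.08 to 0.94, so these differences do not set the pairs apart.

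**Figure D3:**
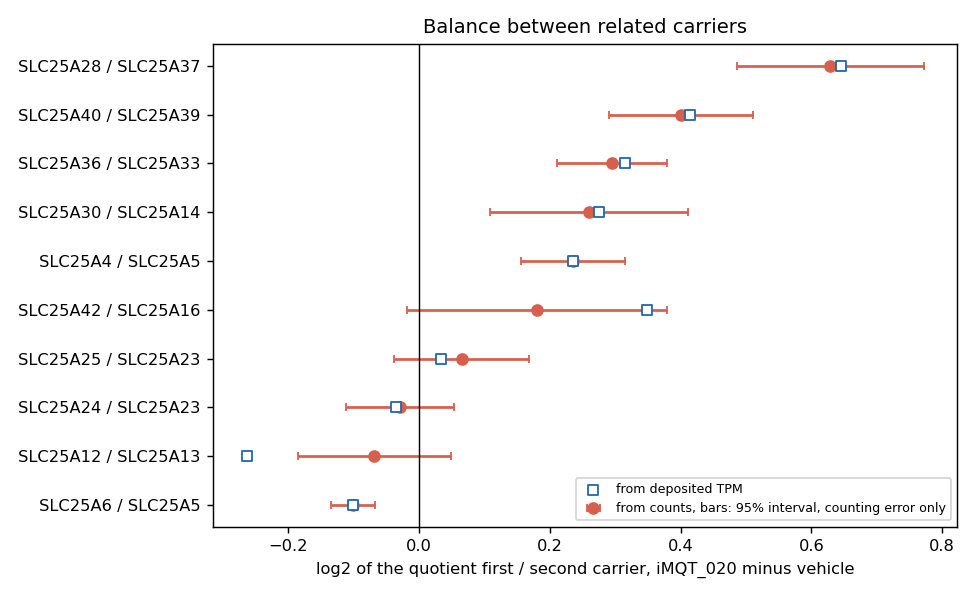
Difference between the log2 ratios (iMQT_020 over vehicle) of 2 related carriers, first named minus second, from counts (red, with 95% intervals of counting error) and from deposited TPM (open blue squares). SLC25A28 over SLC25A37 lies farthest from 0, at 0.63, and the 2 sources part for SLC25A12 over SLC25A13 and SLC25A42 over SLC25A16.

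Ratios moved with the base composition of the transcripts. Across the 41 carriers, Spearman's rho between the GC content of the canonical transcript and the log2 ratio was −0.42 (Pearson's r −0.48), and across 13853 measured genes rho was −0.34. These are correlations across genes of the same 2 libraries, given as a description. SLC25A1, SLC25A10 and SLC25A29, among the 4 lowest carriers, had GC contents of 64.5%, 65.3% and 65.1%, within the highest of 10 bins of all genes, where the median log2 ratio was −0.31. SLC25A21, at 36.45%, lay in the lowest bin, where the median was 0.13. Of the 41 carriers, 25 lay between the quartiles of their GC bin, 10 below and 6 above. By construction 25% of all genes lie below the quartiles of their bin and 25% above. Neither count of carriers exceeds that share, so lying outside the quartiles does not set a carrier apart. Those below included SLC25A1, SLC25A11, SLC25A29, SLC25A37 and SLC25A48, and those above included SLC25A21, SLC25A43, SLC25A44 and SLC25A51. The part of GC content in these differences was not tested.

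**Figure D4:**
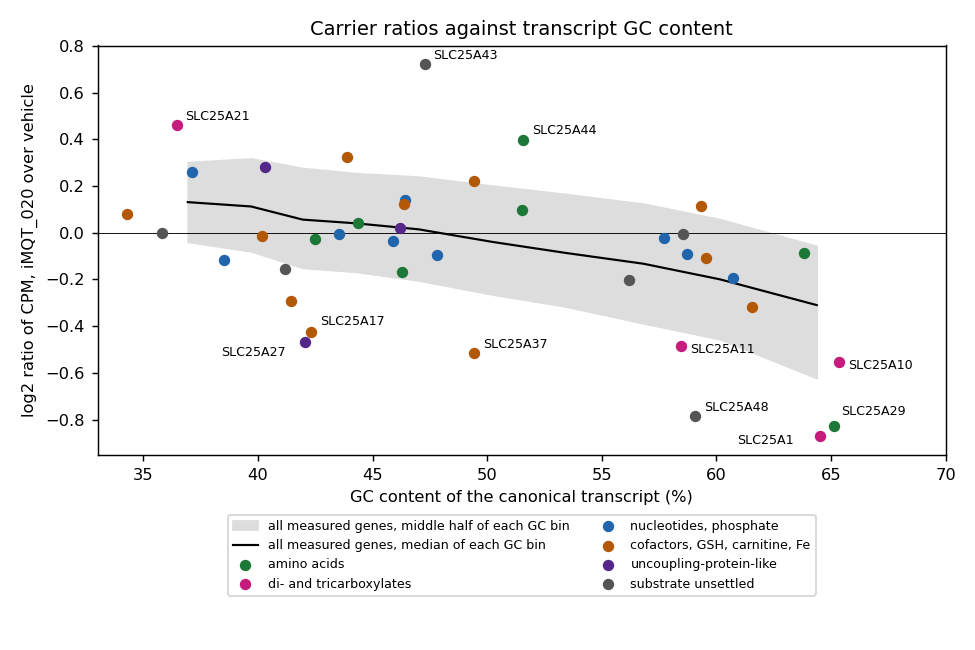
Log2 ratio of CPM, iMQT_020 over vehicle, against the GC content of the canonical transcript in percent for 40 of the 41 measured carriers, coloured by substrate group, over the median (line) and quartiles (grey) of all measured genes in 10 GC bins. The line falls to −0.31 at the right, where SLC25A1, SLC25A10 and SLC25A29 lie, and SLC25A43, SLC25A21 and SLC25A44 lie above the grey band.

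The ratio from counts and the ratio from deposited TPM differed for some carriers. The transcript length implied by a gene's count over its FPKM differed between the libraries by at least 0.1 on the log2 scale for 5 of 41 carriers, 12.2%, against 8.49% of all measured genes. For SLC25A44 it was 5807 bases with iMQT_020 and 4477 with vehicle, and the log2 ratio of TPM was 0.08 against 0.40 from counts. For SLC25A48 it was 2405 and 3074 bases, and the ratio of TPM was −0.38 against −0.79. SLC25A51 went the same way as SLC25A48, with an implied length of 1712 and 1934 bases and a TPM ratio of 0.55. SLC25A12 and SLC25A16 went the way of SLC25A44, with TPM ratios of −0.17 and −0.40. Which transcripts of these genes were counted is not given in the sources used here. The calls past 1.5-fold for SLC25A1, SLC25A29 and SLC25A43 did not depend on this, with log2 ratios of −0.82, −0.78 and 0.77 from TPM. SLC25A48 was within 1.5-fold by TPM.

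**Figure D5:**
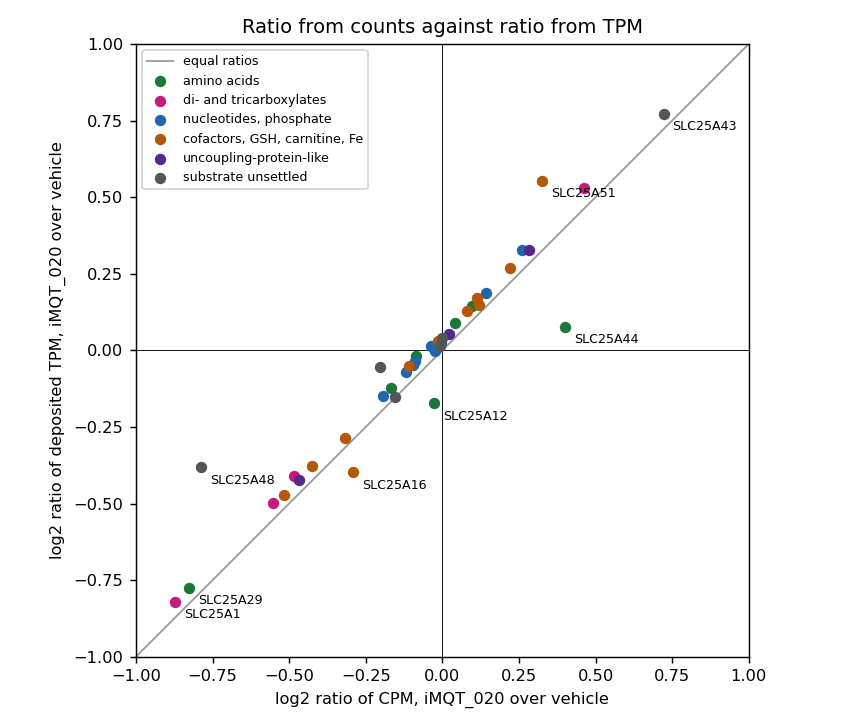
Log2 ratio of deposited TPM against log2 ratio of CPM from counts, both iMQT_020 over vehicle, for 40 of the 41 measured carriers, with a line for equal ratios. SLC25A44, SLC25A12 and SLC25A16 lie below the line and SLC25A48, SLC25A51 and SLC25A35 above it, and the other points lie nearer to it.

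There were 7 carriers under 50 counts in both libraries. SLC25A31, the ADP/ATP carrier of testis, and SLC25A47, a liver protein, had 0 counts in both libraries, which allows up to 0.0506 CPM with iMQT_020 and 0.0448 CPM with vehicle at a floor of 3 counts. SLC25A41 had 10 counts with iMQT_020 and 7 with vehicle, and SLC25A34 had 23 and 26. SLC25A2, SLC25A18 and SLC25A52 are given above. Of 25 pseudogene rows named after carriers, 21 had 0 counts in both libraries, and those with counts summed to 49 with iMQT_020 and 21 with vehicle. Antisense rows were higher, with 635 and 823 counts over 6 rows, most of them from SLC25A25-AS1 (480 and 594).

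Other genes of mitochondrial transport were read from 4 lists. UCP1 to UCP3 and the MTCH proteins (family members under other symbols, outside the rule), the pyruvate carrier, sideroflexins, porins, ABC transporters and the glutamine transporter SLC1A5 had a median log2 ratio of −0.19 over 18 measured of 19. Of the 18, 16 lay below 0 and 2 above, while 52.7% of all measured genes lay below 0. None was at least 1.5-fold higher and 2 were lower, a share near the 10.2% of all measured genes. UCP2, an uncoupling protein homologue of the same family that carries dicarboxylates such as aspartate, had 1771 counts and 41.4 TPM with iMQT_020, and 4402 counts and 88.8 TPM with vehicle. At −1.14 (−1.22 to −1.06; −0.90 after centring) it was lower than any carrier with an SLC25A symbol. SLC1A5, a glutamine transporter named here for its substrate after its value was seen, had 14416 counts with iMQT_020 and 21128 with vehicle (−0.38, −0.41 to −0.34). Counts per gene do not separate the transcript forms of SLC1A5. SFXN3, a sideroflexin, was at −0.76 (−0.93 to −0.59), and UCP3, the muscle uncoupling protein, at 0.49 on 82 and 66 counts. The 10 import factors that bring carrier proteins to the inner membrane had a median of −0.26 (−0.18 after centring). Of these 10, 9 lay below 0, a larger share than the 52.7% of all measured genes. TIMM10, a chaperone of the intermembrane space, had 1223 counts and 70.2 TPM with iMQT_020, and 2172 counts and 107 TPM with vehicle (−0.65, −0.75 to −0.55). TIMM22, the channel of carrier insertion, was at −0.39 and TIMM8B at −0.30.

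Enzymes of the shuttles that carriers complete, 12 measured of 13, had a median of −0.12 with none past 1.5-fold. ACLY, which cleaves exported citrate, had 36350 counts and 330.3 TPM with iMQT_020, and 52898 counts and 412 TPM with vehicle (−0.36). GOT1, the cytosolic transaminase of the malate-aspartate shuttle, was higher at 0.37 (0.31 to 0.43), and IDH2, the mitochondrial isocitrate dehydrogenase, was at −0.45. Enzymes that use or make carrier substrates, 20 measured of 21, had a median of −0.06, with none at least 1.5-fold higher and 2 lower, again near the 10.2% of all measured genes. These were SHMT2, mitochondrial serine hydroxymethyltransferase, at −0.86, and PYCR1, which makes proline, with 4719 counts and 90.9 TPM with iMQT_020, and 9247 counts and 148 TPM with vehicle (−0.79, −0.85 to −0.74). MTHFD2, a folate enzyme, was at −0.58, just inside 1.5-fold. Over the family as a whole the summed level was 3029 TPM with iMQT_020 and 3276 TPM with vehicle. Transcripts of mitochondrial DNA took 92787 TPM with iMQT_020 and 51821 TPM with vehicle, and with these left out of the scaling the family stood at 3339 and 3455 TPM.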

How the data were processed

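Total RNA of cells given iMQT_020 (1 library) or vehicle (1 library) was sequenced. Per the labels' protocols, the authors aligned reads with HISAT2, running Bowtie2, against GRCh38. StringTie and edgeR appear in the submitters' processing notes with no version and no stated role. For counting, annotation and strand, nothing is stated in the labels or headers, so a gene and one that overlaps it may share reads. Per the file headers the values are read counts, taken here as estimated counts (deposited as whole numbers), and FPKM and TPM, which the authors scaled for length and depth. Columns were matched by name, and 0 were left unassigned.

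Counts were scaled by TMM (edgeR 4.0.16, R 4.3.3, factors 1.00 with iMQT_020 and 0.998 with vehicle), with a prior count of 0.5 and a minimum of 50 counts in at least 1 library. Intervals (exact Clopper-Pearson, Wald or Wilson, 95%) treat estimated counts as reads and cover counting error only. Centring subtracted the median of joint bins of GC content and length (10 bins each, GENCODE 44 canonical transcripts). Gene positions came from RefSeq GRCh38.p14. Alternatives were other library scalings (total counts, upper quartile, or median of ratios as in DESeq2 1.42.0), a prior count of 5, minimums of 10, 200 or 1 count, deposited TPM and FPKM, and others given in the closing section. On simulated data the 2-fold rule passed 100% of 2.5-fold changes and 0% of 1.5-fold changes, 50 genes each. The simulated counts held Poisson counting error only, and the changed genes had at least 200 expected counts. Variation between libraries was left out, so this checks the calculation and not the error of comparing single libraries. Named were carriers of glutamate, aspartate, citrate and dicarboxylates, the 3 measured members of each substrate group with the largest absolute log2 ratios, its most abundant member, every member past 1.5-fold, members with counts in 1 library only, and the 3 largest absolute log2 ratios of each other list. Further carriers are named to account for the family, and a few items, among them 1 carrier left out of the figures, are not reported here. The members and lists were chosen with earlier results of these data known.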

Additional observations from a re-analysis of the deposited data

Results flagged for a closer look

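The rows of pseudogenes named after carriers were used only as an alternative that adds them to their parent genes. From these rows, 2 were picked because their counting interval lay above 0, so that interval is no further evidence. An interval clear of 0 was found for 74.2% of all measured genes, and both rows are under the minimum of 50 counts. SLC25A5P5 shares 18 windows of 50 bases with the far more abundant SLC25A5, and SLC25A14P1 shares 13 with SLC25A14. SLC25A5P5 had 37 counts with iMQT_020 and 16 with vehicle (log2 ratio 1.36, exact 95% interval 0.50 to 2.33). SLC25A14P1 had 11 counts with iMQT_020 and 2 with vehicle (2.36, 0.44 to 5.85). SLC25A5, the parent gene of SLC25A5P5, had 30572 and 36873 counts and lay below 0, and SLC25A14 lay near 0 at 0.02.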

How the results depend on the processing

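No paired analysis was possible because each group holds 1 library, and no replicate could be left out for the same reason. Scaling by median of ratios, total counts or upper quartile, a prior count of 5 and summing pseudogene rows left the count of carriers past 2-fold at 0 in both directions, as did every minimum on counts and deposited TPM or FPKM. With a 1.5-fold rule 1 carrier was higher and 3 were lower. The family median ran from −0.06 to −0.02 under other scalings, prior counts, minimums and units, and was −0.00 after centring. Of the values of named carriers under an alternative, 265 lay inside the counting interval and 34 outside it. Many of the 265 could not move, because a minimum on counts leaves a carrier's ratio as it is. Summing pseudogene rows changed few ratios, and the other scalings shifted all ratios alike by a small amount. All 34 came from deposited TPM, deposited FPKM or centring, so the split is no measure of robustness. On log2(TPM + 0.1) SLC25A43 was at 0.74, past 1.5-fold. None of the 4 carriers past 1.5-fold changed sign, but SLC25A43 and SLC25A48 were inside 1.5-fold by log2(TPM + 1), and SLC25A1, SLC25A29 and SLC25A48 after centring. The cause was not tested.

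The counts of all genes past 2-fold (318 higher, 457 lower) were 933 and 1514 with a 1.5-fold rule and 136 and 181 with the rule applied to the near bound of the counting interval. They were 1236 and 1008 with a minimum of 10 counts, 3503 and 2756 with a minimum of 1, and 89 and 244 with a minimum of 200. Deposited TPM on log2(value + 1) gave 140 and 223, and deposited FPKM gave 48 and 118. Protein-coding genes alone gave 201 higher. Without genes of the mitochondrial genome the summed level of the family was 3339 TPM with iMQT_020 and 3455 TPM with vehicle. Depth limits mainly SLC25A43 and SLC25A45, the measured carriers with the fewest counts, and the 7 carriers under 50 counts.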

Other observations

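Several gene models that overlap a carrier, chosen after their values were seen, lay apart from it. PANO1, within the SLC25A22 locus, had 96 counts with iMQT_020 and 44 with vehicle (log2 ratio 1.29, exact 95% interval 0.77 to 1.85), while SLC25A22 was at −0.09. TMX2P1, a pseudogene within SLC25A51, had 31 counts with iMQT_020 and was listed at 0 with vehicle. TMEM232, which overlaps SLC25A46, had 37 counts with iMQT_020 and 16 with vehicle. RANGRF, which overlaps SLC25A35, did not lie apart from it. RANGRF was at −0.34 (−0.43 to −0.26), on the same side as SLC25A35 at −0.20 (−0.41 to −0.00), and the intervals overlap.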
